A study of Mus musculus with 18 samples.

Results

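The solute carriers described here are the mouse genes of the families Slc1, Slc2, Slc3, Slc7, Slc16, Slc36, Slc38 and Slc43, which carry glucose, lactate and related monocarboxylates, and amino acids. They were taken by gene symbol, leaving out Slc7a2 and Slc7a11, and the choice was made with earlier results of these data known. The gene count table holds 55 of them among 23511 genes, and 38 of them were among the 16609 genes with enough counts for a test.

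RNA was sequenced in bulk from macrophages sorted out of the mouse peritoneal cavity into a Tim-4low and a Tim-4high population. Tim-4, encoded by Timd4, is a phosphatidylserine receptor of macrophages resident in body cavities. Both populations came from 3 kinds of mice, which gives 6 groups of 3 libraries. No-tumor mice carried no tumor and have no antibody in the labels. Isotype mice carried an intraperitoneal MC38-LG tumor, from the mouse colon carcinoma line MC38, and received a control antibody. Anti-Tim-4 mice carried the same tumor and received an antibody against Tim-4 on day 7. Tumor-bearing mice were harvested on day 10, and no-tumor mice on the same day. Every comparison of isotype with no-tumor cells therefore covers the tumor and the control antibody together. No source used here gives strain, sex or age. Whether the libraries of a group stem from different animals is not stated, so p-values rest on the spread between libraries, which may be only technical.

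These carriers decide which fuels and building blocks a cell can take up or release. Slc2 proteins let hexoses pass down their gradient, and the lactate carriers of the Slc16 family move lactate together with a proton and need a partner protein, basigin (Bsg) or embigin (Emb), to reach the membrane. The light chains Slc7a5 to Slc7a8 sit in the membrane only when bound to the heavy chain encoded by Slc3a2 and exchange 1 amino acid for another. Slc38 carriers import neutral amino acids with sodium, and Slc36a1 together with Slc38a7 and Slc38a9 works at the lysosome, where amino acids are released and sensed. Activated macrophages are known for high glucose uptake and lactate release.

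Each library held from 24530070 to 34110392 estimated counts over genes. The macrophage markers were high in all libraries, with a summed level of 17000 to 44440 CPM over 7 genes, where CPM are counts scaled by a library's total and its TMM factor. Timd4 averaged 729.5 CPM in no-tumor, 298 CPM in isotype and 187 CPM in anti-Tim-4 Tim-4high cells, against 42.4, 33.6 and 21.3 CPM in the Tim-4low cells. A few libraries held more transcripts of other cells. B cell markers summed to 728 and 225 CPM in libraries 1 of the no-tumor Tim-4low and Tim-4high groups, against 63.4 to 93.8 CPM in the other no-tumor libraries. T cell markers summed to 87.5 and 80.5 CPM in libraries 3 of the isotype groups, against at most 18.4 CPM elsewhere, and neutrophil markers to 207 and 179 CPM there, against at most 61.8 CPM elsewhere. Against the no-tumor groups, in both populations of the isotype groups all 5 B cell markers and 3 of 4 tested mast cell markers fell. In both, 4 of 5 neutrophil, all 5 fibroblast and all 4 mesothelial markers rose. So did 7 of 7 T cell markers in Tim-4high and 6 of 7 in Tim-4low cells. Of all tested genes 27.3% rose and 24.1% fell in Tim-4high cells, and 25.2% and 24.6% in Tim-4low cells (adjusted p under 0.05, edgeR). Fibroblast markers summed to at most 0.752 CPM without a tumor, 19.7 to 69.0 CPM in the Tim-4low and 8.44 to 41.3 CPM in the Tim-4high isotype libraries. Markers of small or recruited macrophages fell in Tim-4low cells (3 of 4 genes), from 4045 to 6460 CPM down to 1003 to 1228 CPM, while in Tim-4high cells 2 rose and 1 fell. The summed macrophage markers themselves went from 36020 to 44440 CPM down to 20920 to 22090 CPM in Tim-4high and from 26020 to 28760 CPM down to 17000 to 18200 CPM in Tim-4low cells. Gene by gene, more of these 7 markers rose than fell, 4 against 2 in Tim-4high and 3 against 1 in Tim-4low cells. The falling sum therefore does not describe most of the macrophage markers. In both populations 2 of 5 carcinoma markers rose, with sums of 0.491 to 2.43 CPM without tumor and 7.67 to 15.1 CPM with it for Tim-4high cells, and 1.13 to 7.71 CPM and 16.4 to 24.8 CPM for Tim-4low cells. Of 3 red cell markers 2 rose in Tim-4high and 3 in Tim-4low cells. Of 2 tested platelet markers 1 fell in both, and the summed level in Tim-4high cells went from 426.5 to 527.8 CPM down to 114.8 to 144.9 CPM. The part of these cells in the carriers' results was not tested beyond the fits without those libraries, which are given where they matter.

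Levels between genes were compared as CPM per kilobase of exon. In no-tumor cells the hexose carrier Slc2a6 had the highest mean, with 41.3 CPM per kilobase in Tim-4low and 33.1 in Tim-4high cells. Its first rank in Tim-4high cells (SD 15.8 per kilobase) depends on library 2. That library read 165 CPM, against 75.8 and 78.2 CPM in libraries 1 and 3. By mean, Slc2a6 was followed by Slc43a2, a carrier of large neutral amino acids, with 27.3 and 30.0 CPM per kilobase. Slc3a2 with 24.3 and 23.3 and Slc38a10 with 22.4 and 23.4 came after these. In isotype cells the lactate carrier Slc16a3 led with 99.2 CPM per kilobase in Tim-4low and 90.0 in Tim-4high cells. Slc7a8 (70.9 and 43.7 CPM per kilobase), Slc2a1 (67.5 and 43.6) and Slc3a2 (66.6 and 46.9) came next in Tim-4low cells, whereas Slc2a6 stood at 48.0 in Tim-4high cells, between Slc16a3 and Slc3a2. All 55 carriers together took 0.165% to 0.202% of a no-tumor library's counts and 0.215% to 0.301% of a tumor library's counts. The 17 carriers without a test were Slc1a2, Slc1a3, Slc2a2, Slc2a7, Slc2a10, Slc2a12, Slc2a13, Slc3a1, Slc7a3, Slc7a14, Slc16a8, Slc16a11, Slc16a12, Slc16a14, Slc36a3, Slc38a11 and Slc43a1. Their highest value in any library was 0.802 CPM, in Slc43a1.

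The first question was how these carriers differ between tumor-bearing (isotype) and tumor-free mice. In Tim-4high cells 26 of the 38 tested carriers passed an adjusted p under 0.05, 18 higher and 8 lower with the tumor, which is 68.4% of them against 51.5% of all tested genes (27.3% higher and 24.1% lower). In Tim-4low cells 21 passed, 13 higher and 8 lower, 55.3% against 49.8% of all genes (25.2% higher and 24.6% lower), a share near the background. The median log2 fold change of the tested carriers was 0.42 in Tim-4high and 0.34 in Tim-4low cells, against -0.01 and -0.02 over all tested genes. Of them, 12 rose in both populations, 7 fell in both, and none changed in opposite directions. These calls are from edgeR's quasi-likelihood test, and values with ± are log2 fold changes with their SE, n = 3 libraries per group. Leaving out any 1 library gave 23 to 25 called carriers in Tim-4high and 20 to 22 in Tim-4low cells. The shares of all tested genes given here are also the background for the counts by family that follow.

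**Figure D1:**
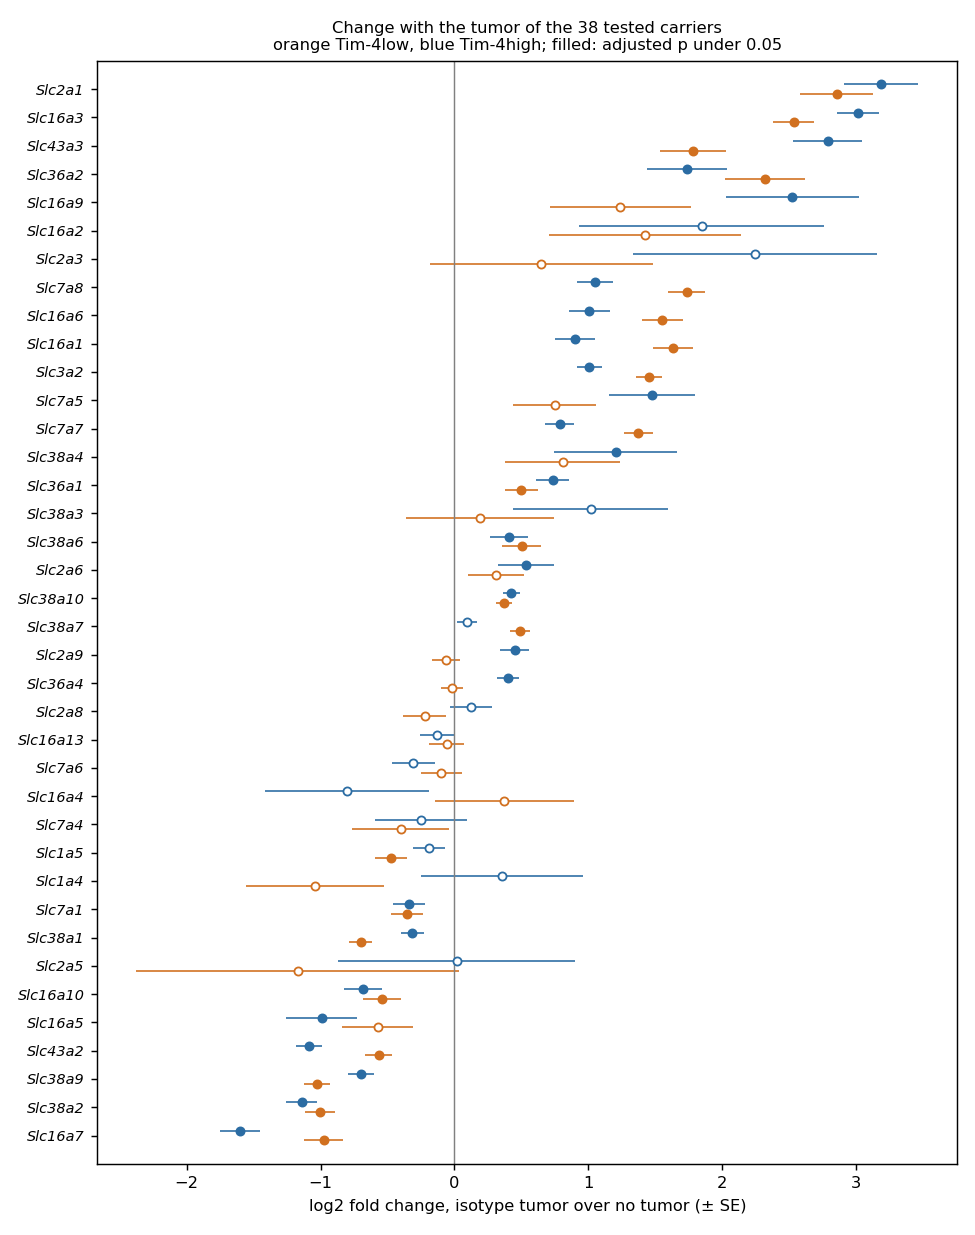
Log2 fold change (x axis, ± SE) of each of the 38 tested carriers between isotype tumor-bearing and no-tumor mice, in Tim-4high (blue) and Tim-4low (orange) macrophages, 3 libraries per group. Filled points passed an adjusted p under 0.05. Slc2a1 and Slc16a3 lie far to the right with values of 2.53 to 3.19, and Slc16a7, Slc38a2, Slc38a9 and Slc43a2 lie to the left of 0 in both populations.

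Of 11 hexose carriers 6 were tested, and with the tumor 3 rose in Tim-4high and 1 in Tim-4low cells. The one that rose in both was Slc2a1, the main glucose carrier of most cells, which the files place at chr4:119108711-119137983 on mm10, forward strand. Its 3 libraries read 17.2, 24.5 and 8.64 CPM in no-tumor Tim-4high cells and 134, 166 and 158 CPM in isotype Tim-4high cells. In Tim-4low cells they read 40.0, 26.0 and 31.9 CPM without and 213, 261 and 235 CPM with the tumor. The groups did not overlap in either population, and the rise was 9.11-fold (3.19 ± 0.28, adjusted p = 3.24e-07, edgeR) in Tim-4high and 7.24-fold (2.86 ± 0.27, adjusted p = 8.33e-07) in Tim-4low cells. The exons of Slc2a1 overlap those of Gm12868 on the other strand, and no source used here says whether counting used strand. Slc2a6, a hexose carrier found on lysosomes, rose less in Tim-4high cells (0.54 ± 0.21, adjusted p = 0.0425, edgeR). Its no-tumor Tim-4high libraries read 75.8, 165 and 78.2 CPM against 151, 155 and 157 CPM with isotype, so the groups overlap through library 2. Without that library the change was 1.00 (adjusted p = 1.3e-06, edgeR), and without any 1 of the other 5 libraries the adjusted p reached up to 0.202. Slc2a9, a urate carrier, rose in Tim-4high cells from 22.1 to 27.1 CPM up to 31.6 to 35.9 CPM (0.45 ± 0.11, adjusted p = 0.00219, edgeR).

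Slc2a3, the glucose carrier of high affinity, did not pass the test in either population, and single libraries decide its values. It read 2.19, 3.04 and 16.2 CPM in isotype Tim-4high libraries 1, 2 and 3, and 3.33, 4.47 and 15.1 CPM in isotype Tim-4low libraries. Without a tumor it read 3.44, 0.513 and 0.528 CPM in Tim-4high and 10.5, 1.72 and 2.48 CPM in Tim-4low libraries. The highest library of each of these 4 groups is one of those named above for T cell and neutrophil or for B cell markers, and the part of those cells in Slc2a3 was not tested. Its log2 difference with the tumor was 2.25 ± 0.91 (adjusted p = 0.0503, edgeR) in Tim-4high and 0.65 ± 0.83 (adjusted p = 0.541) in Tim-4low cells. Without isotype Tim-4high library 3 the Tim-4high difference was 0.80 (adjusted p = 0.482), and without no-tumor Tim-4high library 1 it was 3.75 (adjusted p = 0.0111). Leaving out isotype libraries 3 and no-tumor libraries 1 together gave 2.32 (adjusted p = 0.000115) and 0.89 (adjusted p = 0.0151), and leaving out isotype Tim-4low library 3 alone turned the Tim-4low value to -0.32. Slc2a5, the fructose carrier, and Slc2a8, an intracellular hexose carrier, did not pass in either population.

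Of 14 genes of the Slc16 family 10 were tested, and 4 rose and 3 fell in Tim-4high and 3 rose and 2 fell in Tim-4low cells. The lactate carriers among them moved in different directions. Slc16a3, known for lactate release from glycolytic cells, read 67.2, 67.6 and 42.3 CPM in no-tumor and 457, 478 and 500.2 CPM in isotype Tim-4high libraries. In Tim-4low cells it went from 104, 77.0 and 92.7 CPM to 490.5, 562 and 530.0 CPM. The rise was 8.11-fold (3.02 ± 0.16, adjusted p = 1.89e-09, edgeR) in Tim-4high and 5.79-fold (2.53 ± 0.15, adjusted p = 1.06e-08) in Tim-4low cells. Slc16a1, which carries lactate in either direction, was lower in level and rose from 8.52, 8.80 and 8.45 CPM to 13.4, 18.7 and 15.9 CPM in Tim-4high cells. In Tim-4low cells it rose from 8.93, 6.23 and 5.79 CPM to 19.6, 24.6 and 20.7 CPM. That is 1.87-fold (0.90 ± 0.15, adjusted p = 0.00015, edgeR) and 3.10-fold (1.63 ± 0.15, adjusted p = 6.67e-07).

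Slc16a7, the lactate and pyruvate carrier of highest affinity, fell. It read 64.1, 45.6 and 60.2 CPM in no-tumor Tim-4high cells and 20.1, 19.6 and 16.2 CPM with isotype, and 48.5, 48.0 and 43.01 CPM against 26.2, 24.8 and 19.8 CPM in Tim-4low cells. The fall was 3.04-fold (-1.60 ± 0.15, adjusted p = 5.17e-07, edgeR) and 1.97-fold (-0.98 ± 0.14, adjusted p = 5.02e-05). Of the other genes of the family, Slc16a6, known for the export of ketone bodies, rose in both populations (1.01 ± 0.15 and 1.55 ± 0.15). Slc16a10, a carrier of aromatic amino acids, fell in both (-0.68 ± 0.14 and -0.54 ± 0.14). The reads of Slc16a6 and Slc16a7 are uncertain where exons of Amz2, Arsg or Gm47862 overlap them on the other strand, since no source used here says whether counting used strand.

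**Figure D2:**
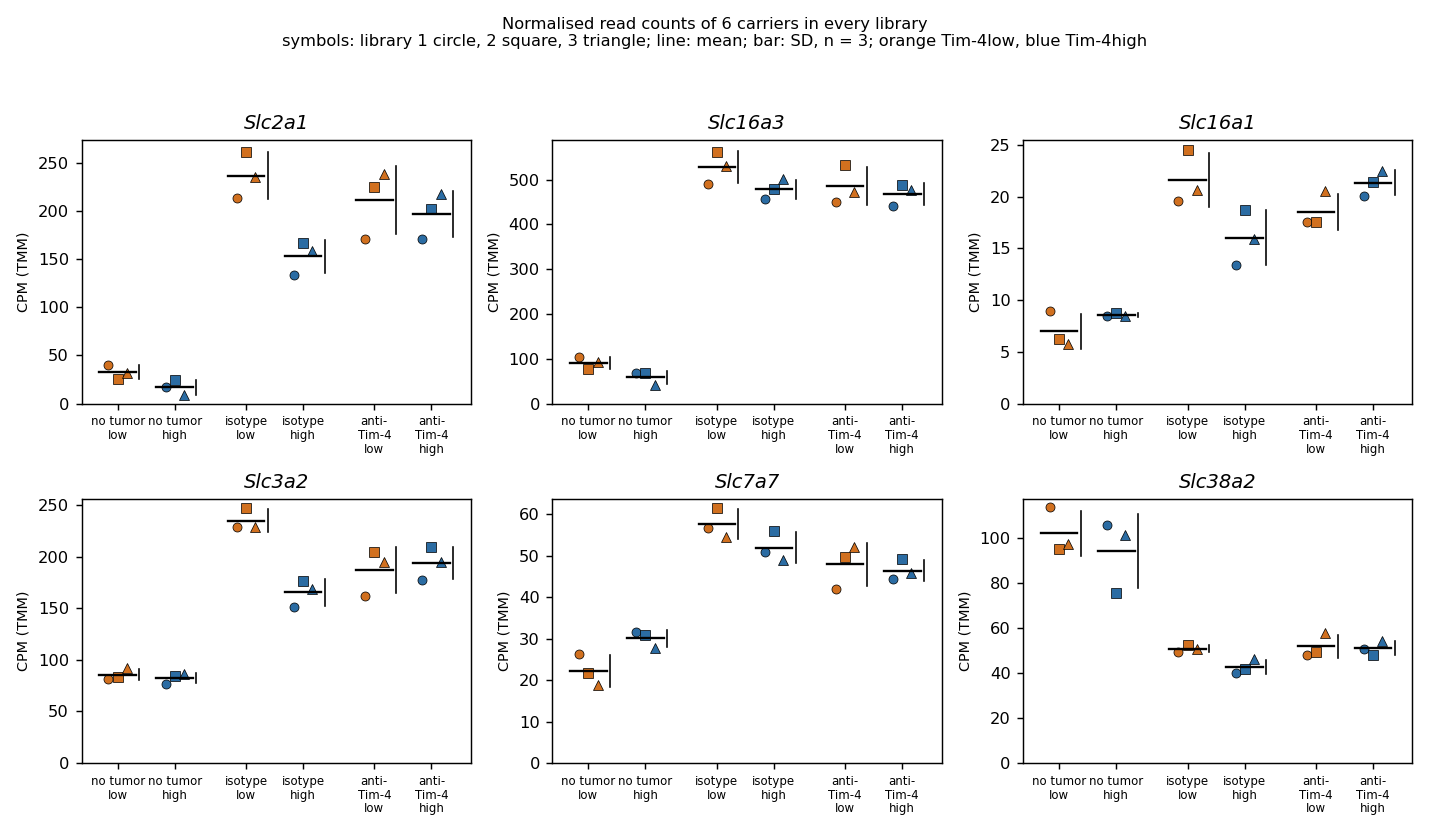
CPM (y axis, TMM-scaled) of Slc2a1, Slc16a3, Slc16a1, Slc3a2, Slc7a7 and Slc38a2 in each of the 18 libraries, by group on the x axis, with the mean and SD of 3 libraries. For the first 5 genes every tumor library lies above every no-tumor library of the same population, and for Slc38a2 every tumor library lies below.

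Glycolysis genes rose with these carriers. Of 17 listed enzymes from hexokinase to lactate dehydrogenase and pyruvate dehydrogenase kinase, 15 rose and 1 fell in Tim-4high cells, and 16 rose in Tim-4low cells. That is 94.1% called in each population, beside 51.5% and 49.8% of all tested genes. The list's median log2 fold change was 1.36 and 1.53, beside -0.01 and -0.02 over all tested genes. Pgk1, phosphoglycerate kinase, rose 7.37-fold in Tim-4high and 5.63-fold in Tim-4low cells, and Ldha, the lactate dehydrogenase subunit that favours lactate, 3.42-fold and 2.98-fold (adjusted p of 5.79e-09 or less, edgeR). Ldhb, the other subunit, fell in Tim-4high cells (-1.86 ± 0.32, adjusted p = 0.000162, edgeR). Both partners of the lactate carriers rose, Bsg by 1.18 ± 0.16 and 1.01 ± 0.16 and Emb by 2.46 ± 0.30 and 1.08 ± 0.28 in Tim-4high and Tim-4low cells. Txnip, which lowers glucose uptake by removing glucose carriers from the membrane, fell by 1.48 and 1.35 on the log2 scale.

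The promoters of 5 carriers are shown because Slc2a1, Slc16a3, Slc16a1 and Slc3a2 rose together and Slc38a2 fell in both populations. RefSeq's table for mm10 (GRCm38.p6) had 34 promoters for 25 of the 38 tested carriers, and each was searched over the 250 bases before the RefSeq start. That start can differ from the annotated start of the gene. The windows of Slc3a2 and Slc16a3 lie inside the annotated genes, at chr19:8706882-8723369 (reverse strand) and chr11:120948480-120960868. The Slc2a1 window runs past the gene start at chr4:119108711. Capitals mark ACGTG or its reverse CACGT, the core letters of the element bound by hypoxia-inducible factors, or CACGTG, the E-box, which holds both. The windows are chr4:119108495-119108744, chr11:120948817-120949066 and chr3:104638414-104638663 on the forward strand and chr19:8713898-8714147 and chr15:96699729-96699978 on the reverse strand, each printed 5′ to 3′ in the direction of its gene.
Slc2a1: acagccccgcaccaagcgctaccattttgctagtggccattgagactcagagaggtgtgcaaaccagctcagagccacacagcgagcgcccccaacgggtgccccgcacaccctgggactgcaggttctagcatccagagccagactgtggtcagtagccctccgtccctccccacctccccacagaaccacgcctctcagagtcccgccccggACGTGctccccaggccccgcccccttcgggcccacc
Slc16a3: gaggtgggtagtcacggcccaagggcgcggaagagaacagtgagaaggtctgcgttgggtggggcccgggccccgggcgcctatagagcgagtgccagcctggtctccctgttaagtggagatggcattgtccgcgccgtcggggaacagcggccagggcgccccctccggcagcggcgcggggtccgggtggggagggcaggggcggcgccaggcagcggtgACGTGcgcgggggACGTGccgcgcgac
Slc16a1: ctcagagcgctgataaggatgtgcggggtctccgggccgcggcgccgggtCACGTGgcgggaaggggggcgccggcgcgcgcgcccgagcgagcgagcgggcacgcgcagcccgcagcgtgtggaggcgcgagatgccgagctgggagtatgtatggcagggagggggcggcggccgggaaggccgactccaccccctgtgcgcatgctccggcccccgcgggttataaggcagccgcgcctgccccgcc
Slc3a2: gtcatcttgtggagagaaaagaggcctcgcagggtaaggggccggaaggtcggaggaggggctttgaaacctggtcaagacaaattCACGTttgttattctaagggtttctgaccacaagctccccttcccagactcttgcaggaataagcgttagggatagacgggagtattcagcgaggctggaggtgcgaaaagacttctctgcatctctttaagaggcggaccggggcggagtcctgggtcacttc
Slc38a2: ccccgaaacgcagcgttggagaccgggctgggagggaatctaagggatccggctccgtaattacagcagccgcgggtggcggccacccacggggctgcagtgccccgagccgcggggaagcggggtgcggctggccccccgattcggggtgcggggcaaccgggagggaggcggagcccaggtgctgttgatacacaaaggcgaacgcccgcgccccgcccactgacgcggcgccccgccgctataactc
Slc2a1 holds ACGTG 36 bases before its RefSeq start, Slc16a3 holds it 14 and 27 bases before, and Slc3a2 holds CACGT 164 bases before. Slc16a1 holds CACGTG 200 bases before its start, and Slc38a2 holds none of these letters in this window. On either strand ACGTG lay in 16.6% of all 32851 promoters and in 9 of the 34 carrier promoters (26.5%). It lay in 6 of 13 promoters, which belong to 9 of the 12 carriers that rose in both populations. Of 7 promoters of 5 of the 7 carriers that fell in both, 0 held it. These small counts were not tested against each other. CACGTG lay in 6.02% of all promoters and 3 of the 34, and TGATGCA, letters of the element bound by Atf4, in 2.68% and 1 of the 34, that of Slc7a7. A match is a description of these letters, and binding was not measured here.

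Of 10 Slc3 and Slc7 genes 7 were tested, and 4 rose and 1 fell in Tim-4high and 3 rose and 1 fell in Tim-4low cells. The heavy chain Slc3a2 rose with its light chains Slc7a7 and Slc7a8. It read 77.0, 84.0 and 85.8 CPM in no-tumor and 151, 177 and 169 CPM in isotype Tim-4high libraries, and 81.5, 83.6 and 92.2 against 229, 247 and 228 CPM in Tim-4low libraries. The rise was 2.01-fold (1.01 ± 0.09, adjusted p = 5.82e-07, edgeR) in Tim-4high and 2.74-fold (1.45 ± 0.09, adjusted p = 1.97e-08) in Tim-4low cells. Slc7a8, the light chain with the highest level per kilobase, exchanges large and small neutral amino acids. It went from 112, 104 and 101 CPM to 195, 254 and 207 CPM in Tim-4high cells and from 101, 112 and 106 CPM to 368, 392 and 304 CPM in Tim-4low cells. No tumor library overlapped a no-tumor library, and the rise was 2.07-fold (1.05 ± 0.14, adjusted p = 1.39e-05, edgeR) and 3.33-fold (1.74 ± 0.14, adjusted p = 1.54e-07).

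Slc7a7, which exports cationic amino acids such as arginine in exchange for neutral ones, rose 1.73-fold in Tim-4high (0.79 ± 0.11, adjusted p = 2.51e-05, edgeR) and 2.59-fold in Tim-4low cells (1.37 ± 0.11, adjusted p = 1.56e-07). Its exons overlap those of Oxa1l on the other strand. Slc7a5, the leucine and tryptophan exchanger of proliferating and activated cells, read 5.53, 3.87 and 5.96 CPM without a tumor and 10.9, 11.2 and 20.6 CPM with isotype in Tim-4high cells. It rose there (1.48 ± 0.32, adjusted p = 0.00123, edgeR), and isotype library 3, which is high in T cell markers, is the highest. Without that library the change was 1.11 (adjusted p = 0.00872). In Tim-4low cells the Slc7a5 difference was 0.75 ± 0.31 (adjusted p = 0.0556, edgeR), and with DESeq2 the adjusted p was 0.0401. Slc7a6, a relative of Slc7a7, and Slc7a4, whose substrate is not settled, did not pass in either population.

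Slc7a1, the arginine and lysine importer, fell slightly in both populations (-0.34 ± 0.12, adjusted p = 0.0293 and -0.35 ± 0.12, adjusted p = 0.0231, edgeR). The call was lost without isotype library 1 or 3 or no-tumor library 2 in Tim-4high cells (adjusted p up to 0.108) and without isotype library 3 or no-tumor library 1 in Tim-4low cells (up to 0.156). The pair left out by the rule went the other way. Slc7a2, an arginine importer of activated macrophages, rose by 3.14 ± 0.19 (Tim-4high) and 3.41 ± 0.19 (Tim-4low), and Slc7a11, the cystine carrier, by 1.43 ± 0.37 and 1.39 ± 0.34. The exons of Slc7a2 overlap those of Gm26584 on the other strand.

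The sodium-coupled carriers of neutral amino acids split, and of the 8 tested Slc38 genes 3 rose and 3 fell in each population. Slc38a2, which starved cells are known to induce, read 106, 75.4 and 101 CPM in no-tumor and 40.0, 41.8 and 46.3 CPM in isotype Tim-4high libraries. In Tim-4low libraries it read 114, 95.1 and 97.5 CPM without and 49.6, 52.5 and 50.5 CPM with the tumor. The fall was 2.21-fold (-1.14 ± 0.12, adjusted p = 1.21e-06, edgeR) and 2.01-fold (-1.004 ± 0.11, adjusted p = 4.5e-06), and no libraries overlapped. Slc38a1, a glutamine importer of the same kind, fell by 0.32 and 0.70 on the log2 scale. Slc38a9, the lysosomal arginine sensor that acts on the Rag GTPases and mTORC1, fell from 32.4, 29.7 and 32.6 CPM to 19.0, 19.7 and 19.7 CPM in Tim-4high cells. In Tim-4low cells it fell from 41.0, 48.4 and 49.0 CPM to 26.5, 22.3 and 19.2 CPM, 1.62-fold (-0.70 ± 0.10, adjusted p = 2.83e-05, edgeR) and 2.03-fold (-1.02 ± 0.10, adjusted p = 7.68e-07).

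In the same family Slc38a10 rose in both populations (0.42 ± 0.06 and 0.37 ± 0.06), as did Slc38a6 (0.41 ± 0.14 and 0.50 ± 0.14). The Slc38a6 call in Tim-4high cells was lost without isotype library 1 or 3 or no-tumor library 1 (adjusted p up to 0.118). Slc38a7, which moves glutamine out of lysosomes, rose in Tim-4low cells (0.49 ± 0.07, adjusted p = 5.62e-05, edgeR), and its difference in Tim-4high cells was 0.10 ± 0.07 (adjusted p = 0.288). The exons of Slc38a10 and Slc38a9 overlap those of Gm11769 and Gm47827 on the other strand.

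Of the proton-coupled carriers, Slc36a1, the lysosomal exporter of small amino acids, rose in both populations (0.73 ± 0.12 and 0.50 ± 0.12). Slc36a4 rose in Tim-4high cells (0.40 ± 0.08, adjusted p = 0.000752, edgeR). Slc36a2 was scarce, with 0.219 to 0.453 CPM in no-tumor and 1.01 to 1.502 CPM in isotype libraries, and rose in both populations (1.74 ± 0.30 in Tim-4high, 2.32 ± 0.30 in Tim-4low). In the Slc43 family the 2 tested genes moved apart. Slc43a2 fell from 305, 287 and 313 CPM to 146, 140 and 141 CPM in Tim-4high cells (-1.09 ± 0.10, adjusted p = 5.16e-07, edgeR) and by 0.57 in Tim-4low cells. The exons of Slc43a2 overlap those of Gm45606 on the other strand. Slc43a3, which carries purine nucleobases, rose from 2.91, 4.07 and 1.51 CPM to 20.6, 17.9 and 20.2 CPM in Tim-4high cells (2.79 ± 0.26, adjusted p = 5.16e-07, edgeR) and by 1.79 ± 0.25 in Tim-4low cells.

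The remaining calls with the tumor were in carriers below 10 CPM, and passed in Tim-4high cells: Slc16a5 (-0.99 ± 0.27), Slc16a9 (2.52 ± 0.50) and Slc38a4 (1.20 ± 0.46). The Slc38a4 call was lost in 4 of 6 fits without 1 library, and all 3 were named after their values were seen. Slc1a5, the exchanger of glutamine and other neutral amino acids, fell in Tim-4low cells (-0.47 ± 0.12, adjusted p = 0.00372, edgeR) and is described further below. Without isotype libraries 3 and no-tumor libraries 1, 23 carriers passed in Tim-4high and 21 in Tim-4low cells, with Slc2a1 at 3.18 and 3.03, Slc16a3 at 3.09 and 2.63, and Slc3a2 at 0.95 and 1.44. In bulk RNA, fewer cells of a type and less RNA per cell cannot be told apart.

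Of the other lists of the pathway, 18 of 19 genes of the amino acid response, which Atf4 drives, were tested. Of these 12 rose and 4 fell in Tim-4high cells and 11 rose and 3 fell in Tim-4low cells, 88.9% and 77.8% beside the 51.5% and 49.8% of all genes. Asns, asparagine synthetase, rose by 2.12 ± 0.39 and 1.41 ± 0.33, while Atf4 itself fell by 1.14 and 0.99 and Ddit3 by 1.14 and 0.92. Of 18 tested genes of amino acid sensing at the lysosome, 6 rose and 4 fell in Tim-4high cells and 5 rose and 4 fell in Tim-4low cells, 55.6% and 50%, which is near the share of all genes. Their median log2 fold change was -0.08 and 0.06. Lamtor2, part of the Ragulator complex, rose by 0.79 ± 0.07 and 0.64 ± 0.07. Of 7 enzymes of glutamine and glutamate use, 3 rose and 2 fell in Tim-4high and 3 rose and 3 fell in Tim-4low cells. That is 71.4% and 85.7%, beside 51.5% and 49.8% of all genes, with medians of 0.10 and -0.06. Gpt2, an alanine transaminase, rose 4.27-fold and 4.97-fold, and Glul, glutamine synthetase, fell by 0.55 and 0.50.

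The next question was whether the antibody against Tim-4 changed these carriers in tumor-bearing mice. In Tim-4high cells 6 of 38 passed, 15.8% of the tested carriers against 7.97% of all tested genes (4.3% higher and 3.67% lower), 4 higher and 2 lower with anti-Tim-4. The higher ones were Slc7a8, Slc7a6, Slc16a10 and Slc36a2, and the lower ones Slc2a8 and Slc38a1. In Tim-4low cells edgeR called none of 38, against 0.325% of all genes (0.223% higher and 0.102% lower), DESeq2 called 0, and 9 carriers had an unadjusted p under 0.05. Slc2a1 and Slc16a3 did not pass, with log2 differences of 0.36 ± 0.25 (adjusted p = 0.385, edgeR) and -0.03 ± 0.15 (adjusted p = 0.918) in Tim-4high cells. The Slc2a1 libraries there read 170.3 to 217 CPM with anti-Tim-4 and 134 to 166 CPM with isotype. The median log2 difference of the 17 glycolysis genes was 0.14 in Tim-4high and -0.08 in Tim-4low cells.

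Slc7a8 read 195, 254 and 207 CPM in isotype and 279, 318 and 338 CPM in anti-Tim-4 Tim-4high libraries, which do not overlap. The rise was 1.43-fold (0.51 ± 0.14, adjusted p = 0.0334, edgeR). In Tim-4low cells it read 368, 392 and 304 CPM with isotype and 232, 273 and 339 CPM with anti-Tim-4 (-0.33 ± 0.13, adjusted p = 0.332). Slc7a6 rose 1.54-fold in Tim-4high cells, from 4.18, 5.54 and 4.77 CPM to 7.22, 7.16 and 7.94 CPM (0.62 ± 0.16, adjusted p = 0.0316, edgeR). Slc16a10 rose from 58.0, 63.9 and 59.5 CPM to 83.5, 80.0 and 89.8 CPM (0.48 ± 0.14, adjusted p = 0.0497, edgeR). Slc36a2 rose from 1.07, 1.01 and 1.502 CPM to 3.11, 4.42 and 3.07 CPM (1.56 ± 0.26, adjusted p = 0.0068, edgeR) and was named after its values were seen. It is a proton-coupled carrier of glycine, alanine and proline.

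Slc2a8 fell from 21.2, 15.7 and 24.3 CPM to 12.9, 14.1 and 11.8 CPM (-0.66 ± 0.16, adjusted p = 0.0257, edgeR). Slc38a1 fell from 93.6, 83.0 and 90.3 CPM to 78.4, 70.7 and 68.7 CPM (-0.29 ± 0.09, adjusted p = 0.0481, edgeR). In all 6 carriers the isotype and anti-Tim-4 Tim-4high libraries did not overlap. That adds no support, since the carriers were picked by a test of these same libraries. The share of all genes without overlap was not counted. The calls depend on single libraries. Without 1 library the count was 0 to 5, with 3 left without anti-Tim-4 library 1, 1 without anti-Tim-4 library 2 or 3 or isotype library 3, and 0 without isotype library 1, where 10 of all genes passed and the adjusted p of Slc36a2 was 0.0542. The highest adjusted p over these fits was 0.216, for Slc38a1. A fit of these 2 groups alone called 11, and a fit without both isotype libraries 3 called 1.

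**Figure D3:**
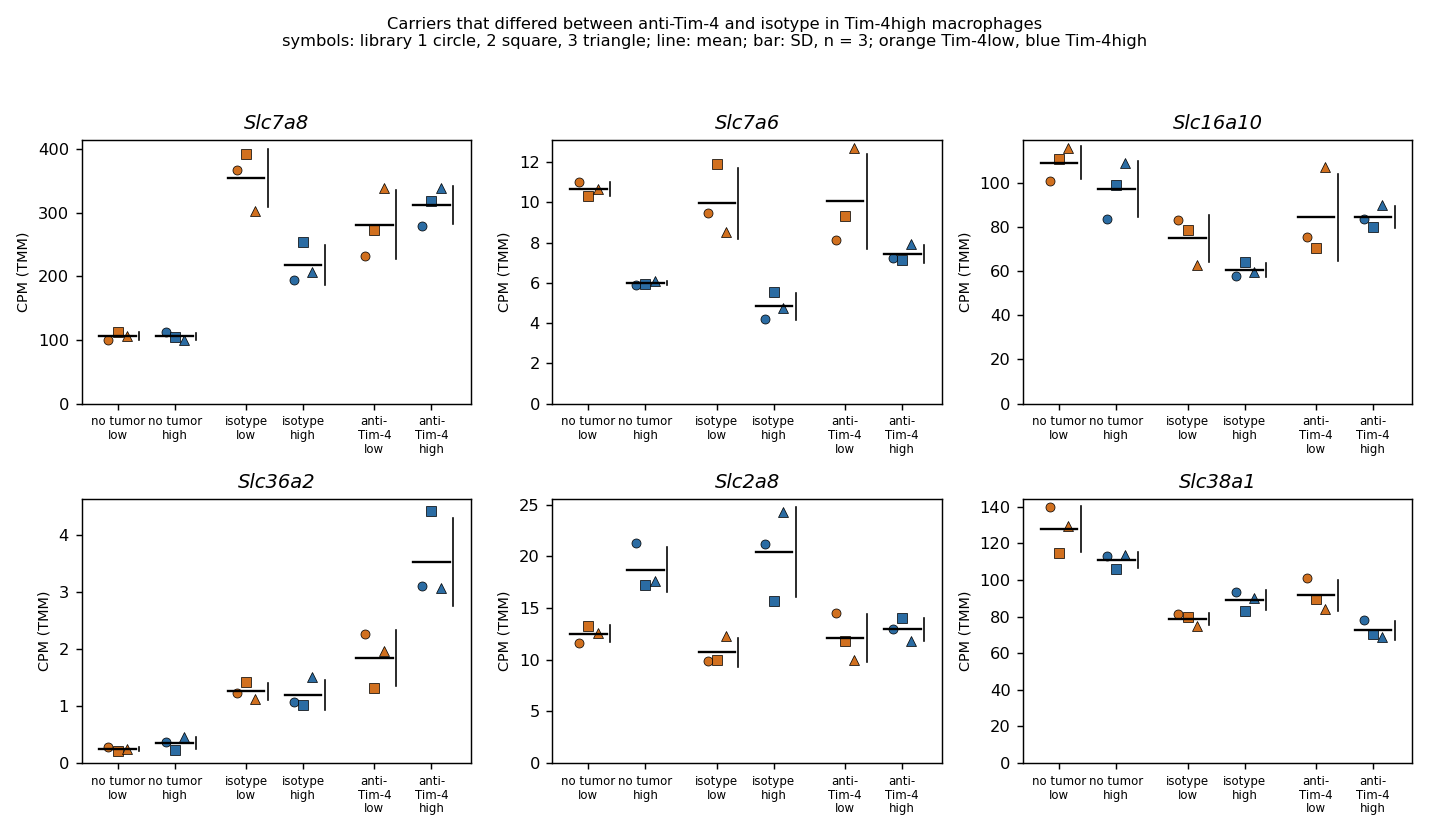
CPM (y axis, TMM-scaled) of the 6 carriers called between anti-Tim-4 and isotype in Tim-4high macrophages, in each of the 18 libraries by group (x axis), with the mean and SD of 3 libraries. In Tim-4high cells Slc2a8 and Slc38a1 are lower and the other 4 higher with anti-Tim-4 than with isotype.

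Values of markers that separate the populations are given for the same comparison. The markers of large peritoneal macrophages summed over 5 genes to 2910 to 3155 CPM in isotype and 1209 to 1882 CPM in anti-Tim-4 Tim-4high libraries, against 458 to 1128 CPM in isotype Tim-4low libraries, and 1 of the 5, Icam2, fell (-1.06 ± 0.29, adjusted p = 0.0361, edgeR). Those of small or recruited macrophages summed to 109 to 189 CPM and 217 to 262 CPM over 4 genes, and 0 of the 4 passed. Fibroblast markers fell (4 of 5 genes), to 3.88 to 5.86 CPM. The part of the makeup of the sorted cells in the 6 carriers was not tested. The mean of Slc2a8 was 20.4 CPM in isotype and 13.0 CPM in anti-Tim-4 Tim-4high cells, beside 10.7 CPM in isotype Tim-4low cells. For Slc7a6 these means were 4.83, 7.44 and 9.96 CPM, and for Slc7a8 218, 312 and 355 CPM. For the other 3 the anti-Tim-4 mean lay outside the range of the isotype means, with 1.20, 3.54 and 1.26 CPM for Slc36a2, 60.4, 84.4 and 74.8 CPM for Slc16a10, and 89.0, 72.6 and 78.7 CPM for Slc38a1.

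Among neighbouring genes, 5 of 14 tested carriers of other families passed with anti-Tim-4 in Tim-4high cells, all 5 higher, beside 4.3% of all genes. Without 1 library the count was 0 to 6, with 0 left without anti-Tim-4 library 3 or isotype library 1 and 1 without isotype library 3. They were Ctns, the lysosomal cystine exporter (0.56 ± 0.11), Slc15a4, a lysosomal histidine and peptide carrier (0.77 ± 0.17), Pqlc2, a lysosomal exporter of cationic amino acids (0.69 ± 0.18), Slc29a3, a nucleoside carrier of lysosomes (0.61 ± 0.13), and Slc37a2 (1.18 ± 0.23). The list's median was 0.35, beside -0.0045 over all tested genes. Of the carrier partners, Bsg fell (-0.58 ± 0.16, adjusted p = 0.0363, edgeR), a call lost without anti-Tim-4 library 2 or 3 or isotype library 1 or 3.

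The third question was how Tim-4low and Tim-4high cells differ. Without a tumor 14 of 38 carriers passed, 36.8% against 24.6% of all tested genes (12.8% higher and 11.8% lower), 8 higher and 6 lower in Tim-4low cells. With isotype 14 passed as well, 7 each way, against 24.1% of all genes (11.3% higher and 12.9% lower). With anti-Tim-4 only 1 passed, 2.63% against 1.39% (0.542% higher and 0.849% lower). In both of the first conditions 3 carriers, Slc1a5, Slc7a6 and Slc7a1, were higher and 3, Slc38a6, Slc2a8 and Slc7a4, lower in Tim-4low cells. Libraries of the same number deviate together within a condition, and with the number as a replicate block 19, 20 and 5 carriers passed in the 3 conditions, beside 34.3%, 34.1% and 7.12% of all genes. The 4 carriers added with anti-Tim-4 were Slc2a3, Slc7a5 and Slc38a1, higher in Tim-4low cells, and Slc38a6, lower. The markers of large peritoneal macrophages summed to 639 to 948 CPM (Tim-4low) and 2722 to 3246 CPM (Tim-4high) without a tumor, and to 545 to 1509 CPM and 1209 to 1882 CPM with anti-Tim-4. Those of small or recruited macrophages summed to 4045 to 6460 CPM against 336 to 590.1 CPM without a tumor and 1003 to 1228 CPM against 109 to 189 CPM with isotype, and dendritic cell markers to 72.0 to 154 CPM against 19.9 to 34.6 CPM without a tumor. The part of these markers' cells in the carriers was not tested.

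Slc1a5 was higher in Tim-4low cells in all 3 conditions. It read 91.8, 73.2 and 92.7 CPM in Tim-4low and 47.2, 42.8 and 40.4 CPM in Tim-4high cells without a tumor (0.98 ± 0.12, adjusted p = 3.08e-05, edgeR). With isotype it read 61.0, 62.7 and 61.8 CPM against 29.9, 38.3 and 45.9 CPM (0.70 ± 0.12, adjusted p = 0.000782), and with anti-Tim-4 55.0, 55.6 and 52.6 CPM against 38.9, 36.7 and 37.4 CPM (0.53 ± 0.12, adjusted p = 0.0399). The libraries did not overlap in any condition. The last of these calls was lost without any 1 of its 6 libraries (adjusted p up to 0.17). Slc1a4, its scarce relative, was higher in Tim-4low cells without a tumor (0.657 to 0.733 CPM against 0.112 to 0.302 CPM, 1.68 ± 0.56, adjusted p = 0.0375, edgeR), and that call was lost without any 1 of its 6 libraries.

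Slc38a6, a neutral amino acid carrier of the SNAT family, was lower in Tim-4low cells. It read 20.1, 27.3 and 21.3 CPM against 42.4, 50.1 and 54.1 CPM without a tumor and 34.7, 28.2 and 34.4 CPM against 71.6, 59.2 and 63.8 CPM with isotype. The difference was 2.14-fold (-1.09 ± 0.14, adjusted p = 5.85e-05, edgeR) and 2.00-fold (SE 0.14 on the log2 scale, adjusted p = 0.00022). Slc7a6 was higher in Tim-4low cells, at 10.3 to 10.99 CPM against 5.90 to 6.08 CPM without a tumor (0.83 ± 0.16, adjusted p = 0.0012, edgeR) and 8.51 to 11.9 CPM against 4.18 to 5.54 CPM with isotype (1.04 ± 0.16, adjusted p = 0.000346). Slc2a8 was lower (-0.58 ± 0.16 and -0.93 ± 0.16), and so was Slc7a4 (-1.18 ± 0.35 and -1.33 ± 0.36), whose exons overlap those of P2rx6 and which was named after its values were seen. The Slc2a8 call without a tumor was lost without Tim-4high library 1 (adjusted p = 0.0555). Those of Slc7a4 were lost in 3 of 6 and 2 of 6 fits without 1 library (adjusted p up to 0.078), and those of Slc7a1 in 4 of 6 each (up to 0.165).

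**Figure D4:**
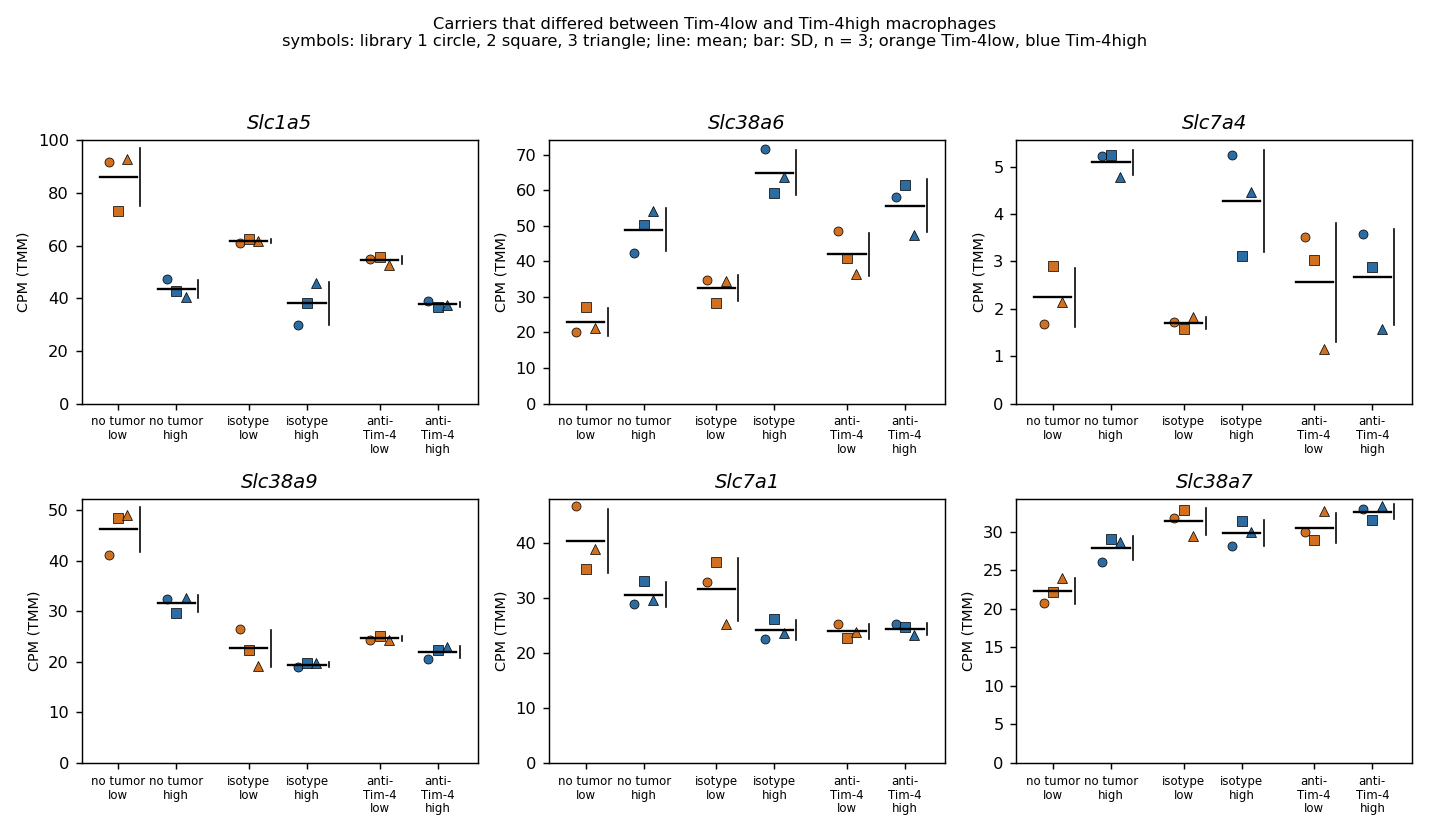
CPM (y axis, TMM-scaled) of Slc1a5, Slc38a6, Slc7a4, Slc38a9, Slc7a1 and Slc38a7 in each of the 18 libraries by group (x axis), with the mean and SD of 3 libraries. Slc1a5 is higher in all Tim-4low libraries (orange) than in the Tim-4high libraries (blue) of the same condition, and Slc38a6 is lower without a tumor and with isotype.

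Other carriers passed in 1 of the conditions, and of these the interaction with the tumor passed for Slc7a7 and Slc38a7. Without a tumor Slc38a9 (0.55 ± 0.10), Slc16a3 (0.62 ± 0.15), Slc2a1 (0.96 ± 0.26) and Slc36a1 (0.40 ± 0.12) were higher and Slc7a7 (-0.44 ± 0.11), Slc38a7 (-0.32 ± 0.07) and Slc16a6 (-0.46 ± 0.15) lower in Tim-4low cells. Slc2a1 lost its call without no-tumor Tim-4low library 1 (adjusted p = 0.0618, edgeR), the library with the most B cell markers. With isotype the Slc2a1 difference was 0.63 ± 0.25 (adjusted p = 0.0845), and it passed with the replicate block (adjusted p = 0.0282). With isotype Slc3a2 (0.51 ± 0.09), Slc7a8 (0.70 ± 0.14), Slc16a1 (0.43 ± 0.15) and Slc43a2 (0.38 ± 0.10) were higher in Tim-4low cells. Slc2a9 (-0.52 ± 0.10), Slc36a4 (-0.32 ± 0.08), Slc43a3 (-0.74 ± 0.23) and the scarce Slc16a9 (-1.95 ± 0.47) were lower. The calls of Slc7a7 (without Tim-4low library 3, adjusted p = 0.0542), Slc36a4 (without Tim-4low library 3, 0.054) and Slc43a2 (without Tim-4low library 1, 0.0512) each ended without 1 library, and those of Slc16a1, Slc43a3, Slc36a1 and Slc16a6 without any of 3 to 5 libraries (adjusted p up to 0.225). Of the carrier partners, Emb was higher in Tim-4low cells without a tumor (2.59 ± 0.30) and with isotype (1.21 ± 0.28), whereas Bsg was lower (-0.74 ± 0.16 and -0.90 ± 0.16).

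Whether the change with the tumor or the antibody differs between populations was tested as an interaction. For the tumor 2 carriers passed, 5.26% against 3.53% of all genes (1.32% higher and 2.21% lower). The rise of Slc7a7 was larger in Tim-4low than in Tim-4high cells by 0.59 ± 0.15 (adjusted p = 0.0474, edgeR), and that of Slc38a7 by 0.39 ± 0.10 (adjusted p = 0.0479). For the antibody 3 passed, 7.89% against 2.93% (1.67% higher and 1.26% lower). The change with anti-Tim-4 was lower in Tim-4low than in Tim-4high cells by 0.85 ± 0.19 in Slc7a8 (a difference of -0.85, adjusted p = 0.0352, edgeR) and by 0.56 ± 0.13 in Slc3a2 (-0.56, adjusted p = 0.0378), and higher in Slc38a1 (0.51 ± 0.12, adjusted p = 0.0383). The Slc3a2 change itself was 0.23 ± 0.09 in Tim-4high and -0.33 ± 0.09 in Tim-4low cells, neither of which passed (adjusted p = 0.131 and 0.152). Each of the 5 calls was lost in at least 8 of 12 fits without 1 library, with adjusted p up to 0.131. With the replicate block all 5 passed, and 13 carriers passed for the tumor, beside 11.2% of all genes, and 13 for the antibody, beside 15.7%.

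Slc1a5 was looked at by transcript after its values were seen. Its gene lies at chr7:16781340-16798274 on mm10, forward strand. The deposited transcript table holds the coding Slc1a5-201 and Slc1a5-202, annotated as a retained intron, and 5 other transcripts with 2.36% to 4.75% of its counts. Slc1a5-202 keeps the 71 bases of intron 7, between exons 7 and 8 of 9, at chr7:16795953-16796023. The intron is shown in capitals between 12 bases of each neighbouring exon, from the GENCODE M21 transcript.
Slc1a5 intron 7: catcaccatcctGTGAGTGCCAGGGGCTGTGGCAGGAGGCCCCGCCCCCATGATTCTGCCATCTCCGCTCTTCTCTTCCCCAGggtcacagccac
In no-tumor cells Slc1a5-202 took 63.9%, 65.3% and 71.2% of the Slc1a5 counts in Tim-4low and 66.4%, 74.4% and 59.6% in Tim-4high libraries. With isotype it took 42.96%, 43.1% and 39.9% in Tim-4low and 31.9%, 32.6% and 32.9% in Tim-4high libraries, and with anti-Tim-4 40.9% to 46.7% and 29.5% to 38.2%. The tumor libraries all lie below the no-tumor libraries.

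The coding Slc1a5-201 read higher with the tumor in both populations, while the gene was called lower in Tim-4low cells and not called in Tim-4high cells. Slc1a5-201 read 14.2, 8.90 and 15.2 CPM in no-tumor and 19.2, 24.4 and 29.5 CPM in isotype Tim-4high cells. In Tim-4low cells it read 29.8, 23.0 and 23.6 CPM against 32.8, 34.1 and 35.6 CPM, and libraries overlapped in neither population. The gene's log2 difference was -0.19 ± 0.12 (adjusted p = 0.196, edgeR) and -0.47 ± 0.12 (adjusted p = 0.00372), and without isotype Tim-4high library 3 the first was -0.35 (adjusted p = 0.0168). A related share, of all retained-intron transcripts of a gene together, was taken over 4868 genes with a retained-intron and a coding transcript. These genes had a mean of at least 10 CPM in every group and at least 20 counts in every library. The share of retained-intron transcripts was lower with the tumor, with no overlap of libraries, in 40.1% of them in Tim-4high and 32.1% in Tim-4low cells, so the direction is common. The median difference over these genes was -0.90 and -0.56 percentage points, and that of Slc1a5 was -35.2 and -25.8. A fall of that size was reached by 0.062% and 0.103% of the genes, Slc1a5 included. A fall in points cannot exceed the starting share, so this ranking favours genes that start high. In Tim-4high cells the mean share of Slc1a5 went from 70.22% to 35.05%. That of Slc38a7 went from 4.449% to 2.151%, and that of Slc43a2 from 1.335% to 1.341%. Falls relative to the starting share were not compared over all genes. A split of estimated counts among overlapping transcripts rests on few reads that tell them apart, and no test was made.

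**Figure D5:**
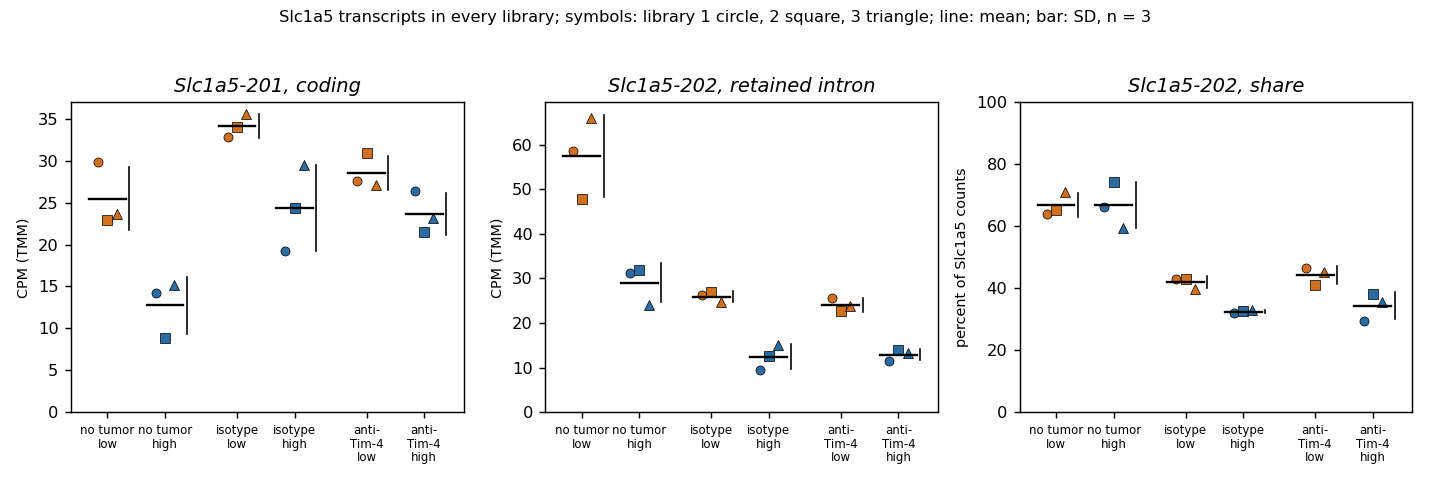
CPM (y axis, TMM-scaled) of the coding transcript Slc1a5-201 (left) and the retained-intron transcript Slc1a5-202 (middle), and the percent of Slc1a5 counts on Slc1a5-202 (right), in each of the 18 libraries by group (x axis), with the mean and SD of 3 libraries. The share is 59.6% to 74.4% in the no-tumor libraries and 29.5% to 46.7% in the tumor libraries.

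The authors' deposited tables cover 2 of these comparisons. In the authors' deposited table that sets the populations of no-tumor mice against each other, 11 of 41 carriers with an FDR were under 0.05, 4 higher and 7 lower in Tim-4high cells, which is 26.8% beside 17.5% of all its genes with an FDR. In the authors' deposited table of Tim-4high cells under both antibodies, 14 of 35 were, 8 higher and 6 lower with anti-Tim-4, which is 40% beside 20.3%.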

How the data were processed

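For all 18 libraries the authors deposited 2 tables of estimated counts, by gene and by transcript. Per the submitters' processing notes, STAR, DESeq2 and mm10 were used; no source used here gives versions, the quantifier or whether strand was used. The authors' deposited comparison tables hold p-values and FDR and a signed fold (a score, negative for a decrease).

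The estimated counts were rounded and fitted with edgeR 4.0.16 (limma 3.58.1, R 4.3.3): TMM factors, the filterByExpr minimum (16609 of 23511 genes kept; those left out took up to 0.0878% of the counts), and 1 quasi-likelihood fit over 6 groups with 12 residual degrees of freedom. The adjusted p is Benjamini-Hochberg over all genes tested, with a threshold of 0.05, and the SE is the log2 fold change divided by the square root of the F statistic. CPM use TMM-scaled totals, and CPM per kilobase divide by the union of a gene's exons in GENCODE M21, whose symbol, chromosome and start matched 23496 genes. No libraries of a group were copies of each other (chi-square of 10.5 to 83.3 per degree of freedom).

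Carriers were described in full where they passed a test in 1 or more of 7 comparisons and reached 10 CPM (26 did, and the 24 with the smallest adjusted p were taken, with Slc2a3 added); others named with values were named after these were seen. The carriers and gene lists were chosen with earlier results of these data known. Same-numbered Tim-4low and Tim-4high libraries of a condition deviated together (r of 0.155 to 0.489 in 9 pairs), so those numbers were taken as pairs; numbers did not pair conditions (r of -0.29 to 0.18). Alternatives were RLE factors, no filter, DESeq2 1.42.0, compared groups only, the replicate block, leaving out each library, and, added after seeing the data, leaving out isotype libraries 3, no-tumor libraries 1, or both.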

Additional observations from a re-analysis of the deposited data

Results flagged for a closer look

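For 5 carriers the change under a contrast differed between the populations by an interaction test. Between isotype and no-tumor mice, the rise in Tim-4low exceeded that in Tim-4high cells by 0.59 on the log2 scale in Slc7a7 and by 0.39 in Slc38a7. Between anti-Tim-4 and isotype, the change in Tim-4low minus that in Tim-4high cells was -0.85 in Slc7a8, -0.56 in Slc3a2 and 0.51 in Slc38a1. The edgeR adjusted p lay between 0.0352 and 0.0479, and each call was lost in 8 to 10 of 12 fits without 1 library. With the replicate block the adjusted p were 0.00263, 0.0121, 0.000544, 0.000608 and 0.00161 in the same order.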

How the results depend on the processing

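Of the 87 calls of carriers over all comparisons, DESeq2 kept 86, RLE factors 86, no filter 78 and the compared groups alone 76 of 86. The replicate block kept 87, and none reversed. For population comparisons and interactions the block pairs same-numbered Tim-4low and Tim-4high libraries within a condition. For comparisons between conditions it was a number factor shared by all conditions. Numbers did not pair conditions, so there the block is no check of a pairing. Without 1 library 419 of 552 were kept. The counts of called carriers for the tumor stayed within 1.5 times under every alternative. For anti-Tim-4 in Tim-4high cells the count was 11 with the compared groups alone, 1 without both isotype libraries 3, 2 without these and both no-tumor libraries 1, and 0 to 5 without 1 library. In Tim-4low cells it was 1 without those 4 libraries. For Tim-4low against Tim-4high without a tumor it was 9 with the compared groups alone, 9 without both no-tumor libraries 1 and 8 to 14 without 1 library. With anti-Tim-4 it was 3 with DESeq2, 2 with the compared groups alone, 5 with the replicate block and 0 without any 1 library. For the tumor interaction it was 0 with no filter, 10 with DESeq2, 1 with the compared groups alone, 13 with the replicate block, 0 without both isotype libraries 3 and 0 to 4 without 1 library. For the antibody interaction it was 13 with the replicate block, 0 without both isotype libraries 3 and 0 to 7 without 1 library. The replicate block changed no other count by over 1.5 times. The Slc2a3 difference in Tim-4low cells with the tumor, 0.65 and not called, turned to -0.32 without isotype Tim-4low library 3 (up to 1.87 without another library) and to -0.32 without both isotype libraries 3. The cause of these changes was not tested. A fit without 1 library leaves 2 in its group, and 17 carriers were too scarce at this depth to be tested.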
